A study of Mus musculus with 14 samples.

Results

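The guanylate-binding protein genes of the mouse were followed in hematopoietic stem cell-enriched bone marrow cells: Gbp2, Gbp3, Gbp4, Gbp5, Gbp6, Gbp7, Gbp8, Gbp9, Gbp10 and Gbp11. These are 10 of the 24833 genes counted, and all 10 passed the filter on low counts that left 15466 genes for testing, Gbp10 only through its PBS libraries. They were chosen by name, with their decreases after IL-1β in these same libraries already known. The IL-1β values below therefore describe the members, and no call of a member counts as a test of its decrease. The cells were SLAM cells, a population that carries Sca-1, Kit and CD150 and lacks lineage markers, Flk2 and CD48. C57BL/6 mice had been injected intraperitoneally with the inflammatory cytokine interleukin-1 beta (IL-1β), at 0.5 µg per mouse per day, or with phosphate-buffered saline (PBS). The groups were IL-1β for 1 day (3 libraries), PBS for 1 day (3 libraries), IL-1β for 20 days (4 libraries) and PBS for 20 days (4 libraries), each library from cells pooled over 3 to 5 mice. Because each library is a pool, differences between single mice are not seen. The sources used here give no further allele or treatment and no age for the animals.

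Guanylate-binding proteins are large GTPases of the dynamin superfamily whose genes are switched on strongly by interferon-gamma and more weakly by type I interferons. The proteins assemble on the membranes of vacuoles that hold bacteria or protozoa, and on bacteria in the cytosol, and promote their destruction and the activation of inflammasomes. The mouse family lies in 2 clusters. In the GENCODE M21 annotation of GRCm38, Gbp5, Gbp7, Gbp3 and Gbp2 lie on the plus strand of chromosome 3 between 142493978 and 142638008 (144 kb), together with Gbp2b. Gbp8, Gbp9, Gbp4, Gbp10, Gbp6 and Gbp11 lie on the minus strand of chromosome 5 between 105014150 and 105346472 (332 kb). Gbp11 is annotated as a polymorphic pseudogene, the other 9 as protein-coding. Gbp2b had 3 counts over all 14 libraries and was not tested.

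The members are close relatives, and how close they are bears on how well short reads separate them. The stretch of the coding sequence that encodes the GTP-binding loop is shown for every member because it lines up without gaps across the family. Each line gives 60 coding bases, from the GENCODE M21 transcripts, and capitals mark the bases that differ from Gbp2.
Gbp2: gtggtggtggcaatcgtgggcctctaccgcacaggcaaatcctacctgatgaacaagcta
Gbp5: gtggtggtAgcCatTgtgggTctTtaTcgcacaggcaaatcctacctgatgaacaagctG
Gbp7: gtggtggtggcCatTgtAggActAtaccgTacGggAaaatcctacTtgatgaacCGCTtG
Gbp3: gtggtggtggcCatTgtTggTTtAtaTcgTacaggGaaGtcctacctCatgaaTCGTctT
Gbp8: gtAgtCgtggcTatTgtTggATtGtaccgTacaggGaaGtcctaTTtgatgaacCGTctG
Gbp9: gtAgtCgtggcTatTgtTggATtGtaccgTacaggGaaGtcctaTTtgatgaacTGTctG
Gbp4: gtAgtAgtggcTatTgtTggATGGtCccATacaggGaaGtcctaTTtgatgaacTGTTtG
Gbp10: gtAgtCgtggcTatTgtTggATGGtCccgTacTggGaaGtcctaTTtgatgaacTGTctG
Gbp6: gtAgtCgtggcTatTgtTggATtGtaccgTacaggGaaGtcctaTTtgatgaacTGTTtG
Gbp11: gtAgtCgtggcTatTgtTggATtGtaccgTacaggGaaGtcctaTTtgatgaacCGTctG
Within this stretch Gbp5 differed from Gbp2 at 7 bases, Gbp7 at 14 and Gbp3 at 16, while the 6 chromosome 5 members differed at 17 to 21. Gbp8 and Gbp11 have the same 60 bases. Over whole coding sequences, identity between pairs of chromosome 5 members was 90.9% at the median (90.0 to 98.4%), against 67.4% (67.0 to 79.5%) between pairs of chromosome 3 members. Gbp10 and Gbp6 were the closest pair, at 98.4%.

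Of the windows of 100 bases in their transcripts, the length of the reads, Gbp10 shared 73.5% with at least 1 other gene and Gbp6 shared 64.5%. The main sharer for both was Gm43302, a gene that covers 46.3% of the exonic bases of Gbp10 and 29.0% of those of Gbp6. Gm43302 was not analysed here. Reads from such windows cannot be assigned to 1 gene by sequence, so the levels of Gbp10 and Gbp6 are uncertain. For Gbp7 the share was 10%, mostly with a processed pseudogene, Gm43802. The other 7 members shared at most 5.13%. Gbp8 and Gbp9 also have annotated transcripts that begin at the start of Gbp4, with 61 and 60 exonic bases in common with other members.

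**Figure D1:**
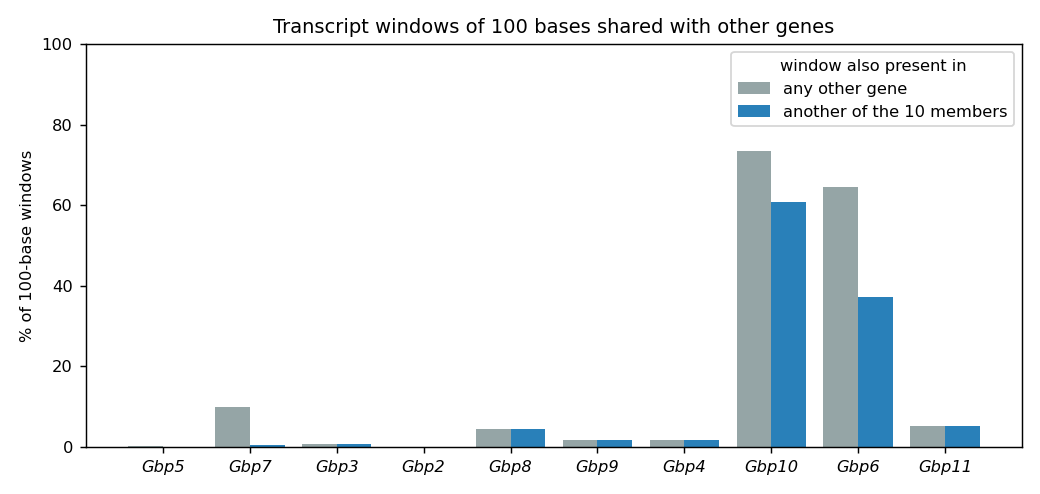
Share of all 100-base windows of each gene's annotated transcripts that also occur in another gene (grey) or in another of the 10 members (blue), in percent. Gbp10 (73.5% and 60.9%) and Gbp6 (64.5% and 37.3%) stand apart from the other members.

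Promoter windows from RefSeq (GRCm38.p6, 250 bases before to 50 after the start) matched the 4 chromosome 3 members and Gbp2b. Promoter windows of the chromosome 5 members were not analysed here. The lines are shown because all 4 windows hold a match to the same motif. They give 60 bases each around the first match to an interferon-stimulated response element-like motif, a pair of GAAA blocks with 2 free bases between them, on either strand. In all 4 the plus strand carries the reverse complement, TTTC blocks with 2 free bases between them. Capitals mark the motif, which in Gbp3 is followed by an overlapping second match.
Gbp5: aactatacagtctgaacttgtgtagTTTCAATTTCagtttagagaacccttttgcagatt
Gbp7: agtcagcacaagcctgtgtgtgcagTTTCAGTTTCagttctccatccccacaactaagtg
Gbp3: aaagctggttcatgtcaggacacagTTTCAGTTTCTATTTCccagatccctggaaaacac
Gbp2: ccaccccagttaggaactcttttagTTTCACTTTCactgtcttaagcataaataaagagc
The windows are chr3:142496744-142496803 for Gbp5, chr3:142530258-142530317 for Gbp7, chr3:142559974-142560033 for Gbp3 and chr3:142620579-142620638 for Gbp2. The matches begin 165, 53, 45 and 59 bases before the RefSeq start of Gbp5, Gbp7, Gbp3 and Gbp2, and 137 bases before that of Gbp2b. Gbp3 has a second RefSeq start whose window holds no match. Among all 32851 promoter windows, 3.44% hold this motif. A gamma-activated site-like motif, TTCNNNGAA, occurs in Gbp5 and Gbp7, with 2 matches each, and in 8.3% of all windows. A kappa B-like motif, GGGA and TTTCC around 1 free base, was found once in Gbp5 and in 0.411% of all windows. A match is a stretch of letters and not a shown binding site.

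Library totals ran from 21654896 to 29441947 counts, so that 3 counts in the deepest library are 0.102 CPM, the count of a gene scaled to the total of its library. RNA of the sort markers Kit, Ly6a (Sca-1) and Slamf1 (CD150) was present in every group, with mean Kit levels of 983 CPM (IL-1β 1 day), 1280 (PBS 1 day), 1200 (IL-1β 20 days) and 1140 (PBS 20 days). Flt3, which encodes Flk2, was detected too and averaged 110 CPM in IL-1β 20-day cells and 52.9 CPM in PBS 20-day cells. At 20 days Flt3 (log2 fold change 1.02), Slamf1 (0.81) and Cd48 (1.10) were called higher with IL-1β (edgeR, adjusted p under 0.05). The Cd48 call ended in 4 of 14 fits that each left out 1 library, and the other calls were kept in every fit. At 1 day none of these genes was called, and Kit and Ly6a were called at neither duration. Replicate 3 of the IL-1β 20-day group stood apart, with a summed level of 12 neutrophil markers of 2640 CPM, against 136 to 194 CPM in the other 3 libraries of that group. Values without it are given where they bear on the members.

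In cells of PBS-treated mice the family was led by chromosome 3 members. Gbp7, which in macrophages takes part in assembly of the phagocyte oxidase, took 40.4 ± 1.76% of the family's counts in PBS 20-day libraries, Gbp2 17.7 ± 1.97% and Gbp3 13.9 ± 0.455% (SD, n = 4). Levels of different genes were compared only as CPM per kb of the transcript with the longest coding sequence. On that scale Gbp7 averaged 84 ± 3.06 CPM per kb in PBS 20-day cells (SD, n = 4), Gbp2 36.5 ± 3.21 and Gbp3 27.4 ± 0.994. Gbp6 (15.9 ± 6.51) and Gbp8 (11.8 ± 0.855) came next, with ranges over libraries that overlapped. They were followed by Gbp5 (8.76 ± 1.54), then by Gbp4 (5.1 ± 0.967) and Gbp9 (4.75 ± 1.34), which overlapped. Gbp11 (1.28 ± 1.2) and Gbp10 (0.716 ± 0.378) were lowest and overlapped each other.

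The chromosome 5 members had less RNA after IL-1β at both durations. Changes of the chromosome 3 members were smaller, and of these Gbp7 was lower at both durations. The summed level of the 6 chromosome 5 members averaged 33.2 ± 10.9 CPM in IL-1β 1-day cells and 102 ± 35.1 CPM in PBS 1-day cells (SD, n = 3 each). At 20 days it averaged 43.9 ± 5.8 CPM in IL-1β cells and 121 ± 28.6 CPM in PBS cells (SD, n = 4 each). The IL-1β level was 32.5% of the PBS level at 1 day and 36.3% at 20 days. For the 4 chromosome 3 members the sum averaged 301 ± 36 CPM in IL-1β 1-day cells and 388 ± 53.4 CPM in PBS 1-day cells, and 393 ± 12.8 CPM in IL-1β 20-day cells and 404 ± 14.1 CPM in PBS 20-day cells. The chromosome 5 members made up 8.2 to 11.9% of the family's counts in IL-1β 1-day libraries against 15.9 to 23.8% in PBS 1-day libraries. They made up 8.35 to 11% in IL-1β 20-day libraries against 19.7 to 28.8% in PBS 20-day libraries. In bulk RNA, fewer cells that express a gene and less RNA per cell cannot be told apart.

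**Figure D2:**
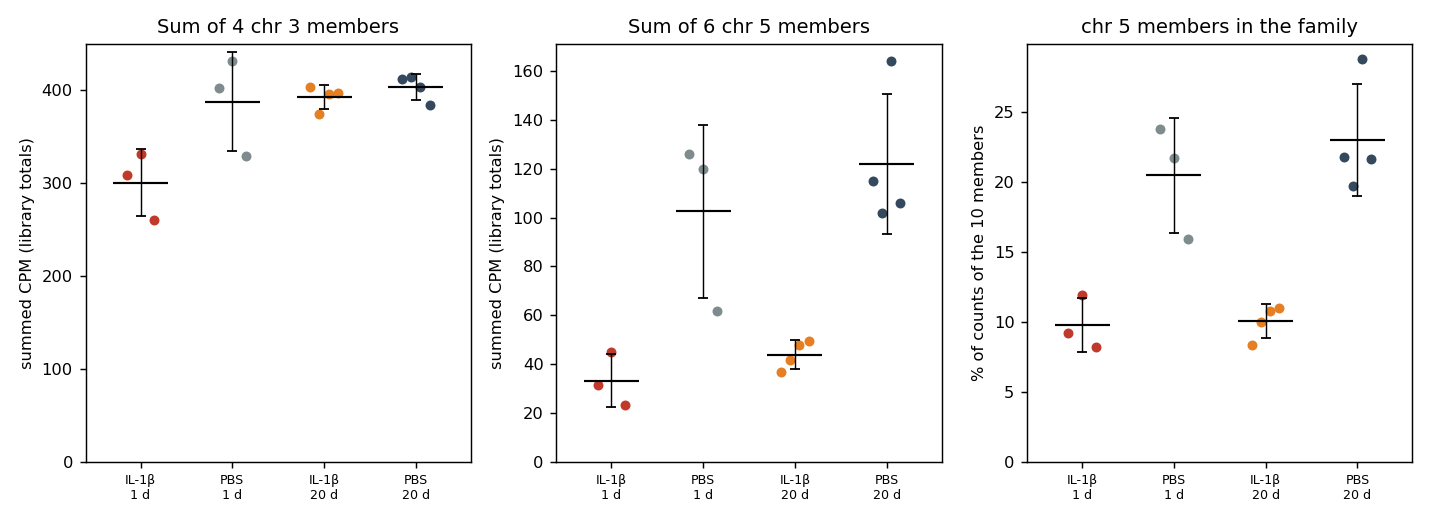
Summed CPM of the chromosome 3 members (left) and chromosome 5 members (middle), and the chromosome 5 members' percentage of the family's counts (right), in each library. Points are libraries, bars the mean and SD. IL-1β and PBS libraries do not overlap in the chromosome 5 sum or share at either duration, while the chromosome 3 sums overlap.

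Of the 10 members, 6 were called lower at 1 day (edgeR, adjusted p under 0.05), where 1.83% of all genes tested were called lower, and 7 at 20 days, where 3.52% were. No member was called higher, against 2.52% of all genes at 1 day and 3.94% at 20 days, and the shares in either direction were 4.35% and 7.46%. The decreases chose the members, so nothing is read from these counts. The count was 3 at 1 day without replicate 1 of the IL-1β group, and 4 at 20 days without replicate 3 of the PBS group. Gbp9 and Gbp11 on chromosome 5 and Gbp3 and Gbp5 on chromosome 3 were not called at 1 day. At 20 days Gbp2, Gbp3 and Gbp5 were not. With each library left out in turn, the call of Gbp10 at 1 day ended in 4 of 14 fits. At 20 days the call of Gbp9 ended in 3 fits and that of Gbp11 in 1. Calls of Gbp4, Gbp6 and Gbp8 were kept in every fit. The median log2 fold change of the chromosome 5 members was -2.04 at 1 day and -2.03 at 20 days, and that of the chromosome 3 members -0.35 and 0.05. Over all genes tested the median was -0.0145 and -3e-04. 

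**Figure D3:**
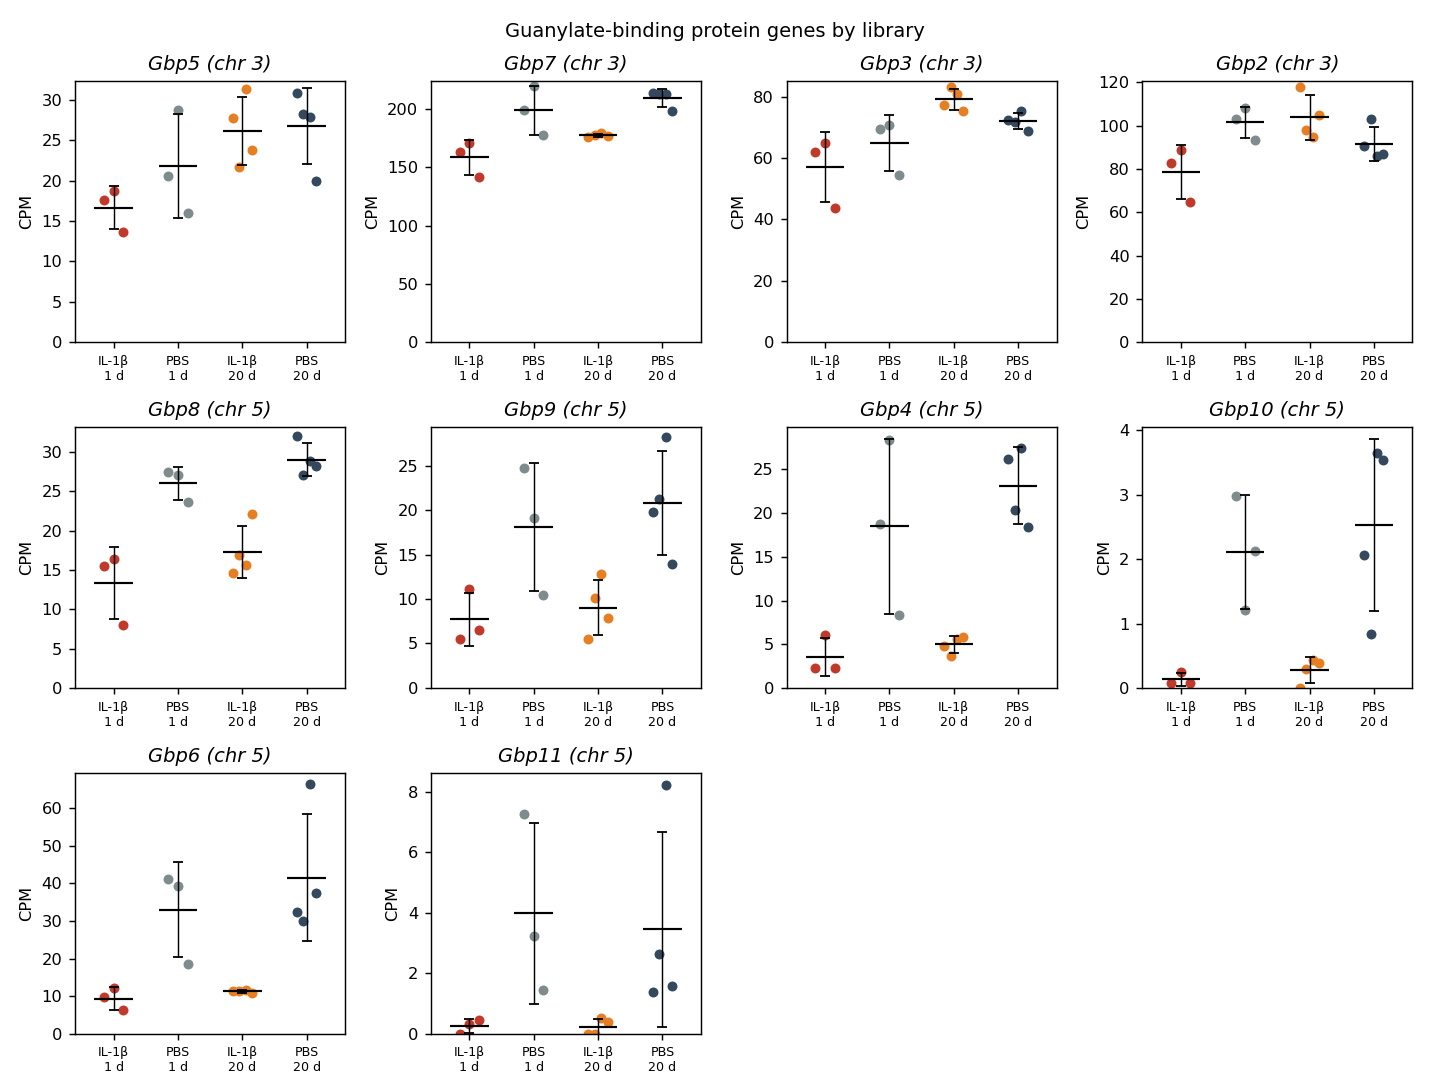
CPM of each member in each library. Points are libraries, horizontal bars the mean and vertical bars the SD; the vertical axes differ between genes and start at 0. For Gbp4, Gbp6, Gbp7, Gbp8, Gbp10 and Gbp11 every IL-1β library lies below every PBS library of the same duration.

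Gbp4, which in mouse cells has been reported to restrain IRF7, had 2.25, 6.02 and 2.3 CPM in IL-1β 1-day libraries and 18.7, 28.4 and 8.32 CPM in PBS 1-day libraries. It had 4.81, 3.67, 5.64 and 5.87 CPM in IL-1β 20-day libraries and 26.2, 20.4, 27.5 and 18.4 CPM in PBS 20-day libraries. The groups did not overlap at either duration, and PBS 1-day replicate 3 was the lowest PBS library. The log2 fold change of IL-1β over PBS was -2.31 ± 0.32 (SE) at 1 day and -2.22 ± 0.27 at 20 days.

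Gbp6, one of the members that gather on Toxoplasma vacuoles in mouse cells, had 9.72, 12.2 and 6.21 CPM in IL-1β 1-day libraries and 41.3, 39.2 and 18.5 CPM in PBS 1-day libraries. It had 11.4, 11.3, 11.7 and 10.8 CPM in IL-1β 20-day libraries and 32.3, 29.9, 66.5 and 37.4 CPM in PBS 20-day libraries. The IL-1β 20-day libraries were close to each other, PBS 20-day replicate 3 was far above the other PBS libraries, and no IL-1β library reached a PBS library of its duration. The log2 fold change was -1.78 ± 0.22 at 1 day and -1.83 ± 0.19 at 20 days, and at 20 days -1.57 without PBS replicate 3.

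Gbp10, the near copy of Gbp6, had 0.0804, 0.247 and 0.073 CPM in IL-1β 1-day libraries and 2.98, 1.21 and 2.12 CPM in PBS 1-day libraries. It had 0, 0.288, 0.434 and 0.391 CPM in IL-1β 20-day libraries and 2.07, 0.839, 3.65 and 3.54 CPM in PBS 20-day libraries. All IL-1β libraries were below all PBS libraries, at levels near the limit that single counts allow. In counts, the IL-1β 1-day group held 10 and the PBS 1-day group 152, a level 15.9-fold lower with IL-1β. The exact 95% interval was 8.41 to 33.8 and covers counting error of independent reads only. The IL-1β 20-day group held 28 and the PBS 20-day group 257, 9.56-fold lower (6.46 to 14.7).

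Gbp11 had 0, 0.33 and 0.438 CPM in IL-1β 1-day libraries and 7.28, 3.23 and 1.44 CPM in PBS 1-day libraries. It had 0, 0, 0.521 and 0.391 CPM in IL-1β 20-day libraries and 1.37, 2.64, 8.22 and 1.57 CPM in PBS 20-day libraries. The PBS libraries spread widely, yet none came as low as an IL-1β library of its duration. The IL-1β 1-day group held 20 counts and the PBS 1-day group 301, 15.7-fold lower with IL-1β (10 to 26.1), and at 20 days the counts were 22 and 376, 17.8-fold lower (11.6 to 28.7). Both intervals cover counting error of independent reads only and leave out the spread between libraries. The PBS 1-day libraries, for example, held 183, 88 and 30 counts, and the fit did not call Gbp11 at 1 day. The fitted log2 fold changes were -3.97 ± 0.82 for Gbp10 and -3.80 ± 1.06 for Gbp11 at 1 day, and -3.19 ± 0.66 and -4.39 ± 0.93 at 20 days.

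Gbp8 had 15.5, 16.4 and 8.04 CPM in IL-1β 1-day libraries and 27.4, 27.1 and 23.6 CPM in PBS 1-day libraries. It had 14.6, 16.9, 15.6 and 22.1 CPM in IL-1β 20-day libraries and 32, 27.1, 28.8 and 28.2 CPM in PBS 20-day libraries. The groups did not overlap at either duration, and the log2 fold changes of -1.02 ± 0.18 and -0.75 ± 0.16 were the smallest among the chromosome 5 members. Gbp9, another member found on Toxoplasma vacuoles in mouse cells, had 5.46, 11.1 and 6.57 CPM in IL-1β 1-day libraries and 24.7, 19.1 and 10.5 CPM in PBS 1-day libraries. Here IL-1β replicate 2 lay above PBS replicate 3, so the 1-day groups overlapped. At 20 days Gbp9 had 5.46, 10.1, 12.8 and 7.83 CPM in IL-1β libraries and 19.8, 21.3, 28.2 and 13.9 CPM in PBS libraries, without overlap. Its log2 fold change was -1.17 ± 0.33 at 1 day and -1.22 ± 0.28 at 20 days.

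Among the chromosome 3 members, Gbp7 was the one that was lower at both durations without overlap. It had 163, 171 and 142 CPM in IL-1β 1-day libraries and 199, 220 and 178 CPM in PBS 1-day libraries, a log2 fold change of -0.33 ± 0.08. It had 176, 178, 179 and 177 CPM in IL-1β 20-day libraries and 214, 213, 213 and 198 CPM in PBS 20-day libraries, a log2 fold change of -0.24 ± 0.07. The decrease was small beside those on chromosome 5 but the libraries of each 20-day group were close together. Without a single library its call ended in 5 of 14 fits at 1 day and 10 of 14 at 20 days.

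Gbp2, which coats Toxoplasma vacuoles and Gram-negative bacteria in mouse cells, was lower at 1 day and not at 20 days. It had 82.6, 88.6 and 64.7 CPM in IL-1β 1-day libraries and 103, 108 and 93.6 CPM in PBS 1-day libraries, without overlap. It had 118, 98.2, 94.6 and 105 CPM in IL-1β 20-day libraries and 90.8, 103, 85.8 and 87 CPM in PBS 20-day libraries, with overlap. The log2 fold change was -0.38 ± 0.10 at 1 day and 0.18 ± 0.09 at 20 days. The 1-day call of Gbp2 ended in 11 of 14 fits that each left out 1 library.

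Gbp3 had 62.1, 65.1 and 43.9 CPM in IL-1β 1-day libraries and 69.5, 70.7 and 54.4 CPM in PBS 1-day libraries. It had 77.5, 83.2, 80.9 and 75.4 CPM in IL-1β 20-day libraries and 72.4, 71.9, 75.3 and 68.9 CPM in PBS 20-day libraries. The groups overlapped at 1 day, and at 20 days the IL-1β libraries were all above the PBS libraries, by a narrow margin. The log2 fold change was -0.20 ± 0.09 at 1 day and 0.13 ± 0.08 at 20 days. Gbp5, which in mouse macrophages promotes assembly of the NLRP3 inflammasome, had 17.6, 18.7 and 13.6 CPM in IL-1β 1-day libraries and 20.6, 28.7 and 16 CPM in PBS 1-day libraries. At 20 days it had 27.7, 21.7, 31.3 and 23.8 CPM in IL-1β libraries and 30.8, 28.3, 27.9 and 20 CPM in PBS libraries. Both pairs of groups overlapped, with log2 fold changes of -0.37 ± 0.19 and -0.03 ± 0.16.

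**Figure D4:**
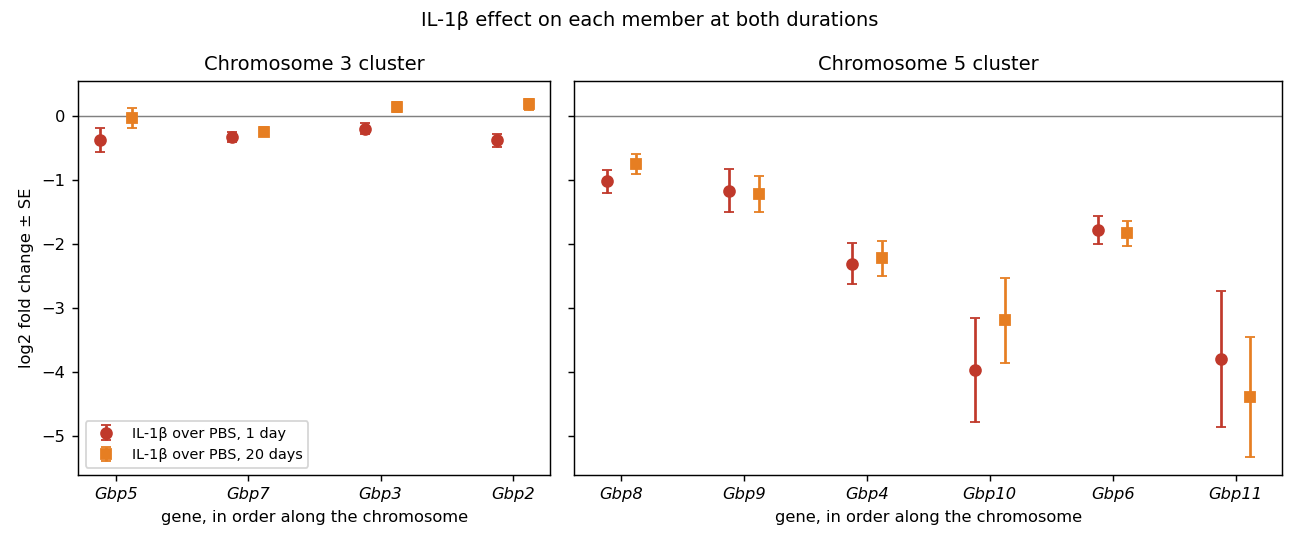
Log2 fold change of IL-1β over PBS with its SE for each member, in order along chromosome 3 (left) and chromosome 5 (right), at 1 day (red circles) and 20 days (orange squares). Chromosome 5 members lie between -0.75 and -4.39, chromosome 3 members between -0.38 and 0.18.

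The non-overlapping decreases can be set beside all genes: 8.91% of the genes tested had every IL-1β library below every PBS library at 1 day, and 4.99% at 20 days. Among the members 7 did so at 1 day and 7 at 20 days, which again reflects how they were chosen. The 20-day minus the 1-day effect was 0.56 ± 0.13 on the log2 scale for Gbp2, 0.33 ± 0.12 for Gbp3, 0.34 ± 0.25 for Gbp5 and 0.08 ± 0.10 for Gbp7. For the chromosome 5 members it ran from -0.60 ± 1.36 (Gbp11) to 0.78 ± 1.01 (Gbp10), with an SE close to or above the difference in each. Differences of mean log2(CPM + 0.5) were also taken within the naming sets of the library titles. The 10k set holds 1 IL-1β and 1 PBS library, the other sets 2 of each. The added 0.5 shrinks the differences of low genes, so they are not on the scale of the fitted changes. The median difference of the chromosome 5 members was -1.50 in the 10k set and -1.86 in the E060216 set at 1 day. At 20 days it was -1.49 in the E061316 set and -1.99 in the untagged set. For the chromosome 3 members it was -0.31, -0.31, -0.06 and 0.16 in the same sets.

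Each library was left out in turn, and values without IL-1β 20-day replicate 3 are given here. Without it the 20-day log2 fold changes were -2.27 for Gbp4, -1.78 for Gbp6, -0.70 for Gbp8, -1.42 for Gbp9, -3.26 for Gbp10 and -4.83 for Gbp11. On chromosome 3 they were -0.17 for Gbp5, -0.26 for Gbp7, 0.11 for Gbp3 and 0.20 for Gbp2. Macrophages, which express this family, could be carried in a bone marrow sort. The summed level of 11 macrophage markers was 22.9 to 40 CPM in IL-1β 1-day libraries and 37.3 to 43 CPM in PBS 1-day libraries, and 25.5 to 37.9 CPM in IL-1β 20-day libraries and 21.6 to 51.3 CPM in PBS 20-day libraries. Over the 9 markers tested the median log2 fold change was -1.16 at 1 day and -1.17 at 20 days. None of the 9 passed at 1 day. At 20 days C1qa, C1qb and Cd5l were lower and Cd68 higher, and the calls of the lower genes ended in 10, 11 and 4 of 14 leave-one-out fits. Cd68 had a log2 fold change of 0.97 at 20 days and kept its call in all 14 fits (adjusted p up to 0.00832, edgeR). The complement gene C1qb averaged 1.19 CPM in IL-1β 20-day cells and 3.8 CPM in PBS 20-day cells. Siglec1 was at 0 in every IL-1β 20-day library, a level that without its PBS level does not show a decrease. Adgre1 reached at most 1.26 CPM in the IL-1β 20-day libraries. Its log2 fold change was -3.43 at 1 day and -0.95 at 20 days, and it was called at neither duration. The part of these markers in the Gbp result was not tested.

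PBS at 20 days was compared with PBS at 1 day, a contrast that did not itself choose the members. The PBS libraries of both durations entered the decreases that did, so the comparison is not independent of that choice. None of the 15466 genes was called (0%, edgeR), with 675 genes at an unadjusted p under 0.05 and 10 genes called by DESeq2. The members' log2 fold changes of PBS 20 days over PBS 1 day ran from -0.20 (Gbp11) to 0.33 ± 0.30 (Gbp6), with unadjusted p of 0.175 to 0.828 and adjusted p of 0.999 for all. Gbp5 had 0.30 ± 0.21 and Gbp4 0.32 ± 0.37. Each naming set belongs to a single duration, so that set and duration cannot be told apart in this comparison. A p above the threshold does not show that the levels were equal.

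The immunity-related GTPases, a related family of interferon-inducible GTPases that act on pathogen vacuoles together with the guanylate-binding proteins, were counted from a list. Of 12 tested, 4 were called lower and none higher at 1 day, with a median log2 fold change of -0.46. At 20 days 5 were lower and 2 higher, with a median of -0.37. At 1 day 2 were lower without IL-1β replicate 1, IL-1β replicate 3 or PBS replicate 2, and 8 without PBS 20-day replicate 4. At 20 days 2 were lower without IL-1β replicate 1 or 3, and 3 without IL-1β replicate 4 or PBS replicate 3. Tgtp1, a T-cell-specific GTPase gene, had 26.2, 32.5 and 22.8 CPM in IL-1β 1-day libraries and 46.9, 49 and 42.9 CPM in PBS 1-day libraries. It had 30.5, 36.3, 28.8 and 27 CPM in IL-1β 20-day libraries and 48.5, 46.3, 48.3 and 43.4 CPM in PBS 20-day libraries. The groups did not overlap, and Tgtp1 fell by 0.78 ± 0.12 on the log2 scale at 1 day (adjusted p = 0.00238, edgeR) and by 0.61 ± 0.11 at 20 days (adjusted p = 0.00309), called in every leave-one-out fit.

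Iigp1, whose product helps disrupt the vacuole of Toxoplasma, fell by 0.52 ± 0.12 at 1 day (adjusted p = 0.0225, edgeR) and by 0.51 ± 0.10 at 20 days (adjusted p = 0.00787). Its 1-day call ended in 5 of 14 leave-one-out fits (adjusted p up to 0.133). Gm4951 fell by 0.82 ± 0.15 at 1 day (adjusted p = 0.00685), a call that ended without IL-1β replicate 1 (adjusted p = 0.0549) or PBS replicate 2 (adjusted p = 0.0505). At 20 days Gm4951 fell by 0.54 ± 0.13 (adjusted p = 0.0236), lost without IL-1β replicate 1 or 3 or PBS replicate 3 (adjusted p of 0.0636, 0.0715 and 0.0733). Tgtp2 fell by 0.66 ± 0.12 at 1 day (adjusted p = 0.00718, and 0.0593 without IL-1β replicate 3) and had -0.37 at 20 days (adjusted p = 0.052). The 2 higher genes at 20 days, 9930111J21Rik1 and 9930111J21Rik2, had 7.58 and 13.2 CPM in IL-1β cells and 4.07 and 6.38 CPM in PBS cells. Their calls ended in 13 and 3 of 14 leave-one-out fits. For 9930111J21Rik2 the 3 fits left out IL-1β 20-day replicate 1, IL-1β 20-day replicate 4 or PBS 20-day replicate 1 (adjusted p of 0.069, 0.0591 and 0.0524).

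Few genes of interferon sensing and signalling were called. Of 12 interferon regulatory factor genes, 1 was called lower at 1 day and none at 20 days. The gene called at 1 day, Irf5, had -0.60, and its call ended in 9 of 14 leave-one-out fits (adjusted p up to 0.221, edgeR), each of which called none of the list, while 3 were called lower without PBS 20-day replicate 4. Of 9 inhibitor genes, 1 was higher at each duration. The 2 interferon-gamma receptor chains had log2 fold changes of 0.09 (Ifngr1, adjusted p = 0.731) and 0.16 (Ifngr2, adjusted p = 0.609) at 1 day. At 20 days Ifngr1 had 0.17 (adjusted p = 0.312) and Ifngr2 rose by 0.44 ± 0.12 (adjusted p = 0.0429), a call that ended in 10 of 14 leave-one-out fits (adjusted p up to 0.129). Of 5 interferon receptor genes tested, none was called at 1 day and 2, Ifngr2 and Ifnar2, were higher at 20 days. Both calls ended whichever library of the IL-1β 20-day group was left out. No interferon ligand gene had enough counts for a test. Irf1, a transcription factor that drives Gbp genes, had -0.28 at 1 day (adjusted p = 0.0929) and 0.03 at 20 days (adjusted p = 0.897). Socs3, an inhibitor of cytokine signalling, rose by 1.80 ± 0.28 at 20 days (adjusted p = 0.0013), and had 1.25 at 1 day (adjusted p = 0.0434), where the call ended in 8 of 14 leave-one-out fits (adjusted p up to 0.218).

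Of 24 interferon-gamma effector genes tested, 4 were lower and none higher at 1 day (median -0.27), and 8 lower and none higher at 20 days (median -0.38). At 1 day the count was 1 without IL-1β replicate 1, IL-1β replicate 2 or PBS replicate 2, and 2 without IL-1β replicate 3 or PBS replicate 3, and at 20 days it was 6 to 10 over the leave-one-out fits. The MHC class II chain gene H2-Aa averaged 24.6 CPM in IL-1β 1-day cells and 60.5 CPM in PBS 1-day cells, and 27.6 CPM in IL-1β 20-day cells and 74.7 CPM in PBS 20-day cells. It fell by 1.30 ± 0.20 at 1 day (adjusted p = 0.00173, edgeR) and by 1.40 ± 0.17 at 20 days (adjusted p = 0.000236). Of 36 type I interferon-stimulated genes, 6 were lower and none higher at 1 day (median -0.22), and 4 lower and none higher at 20 days (median -0.11). At 1 day 3 were lower without IL-1β replicate 1 or 3 or PBS replicate 2 or 3, and 11 without PBS 20-day replicate 4. At 20 days 1 was lower without IL-1β replicate 1, IL-1β replicate 4 or PBS replicate 3, and 2 without IL-1β replicate 3 or PBS replicate 2. Ifit1, an antiviral gene, fell by 1.10 ± 0.15 at 1 day (adjusted p = 0.00105) and had -0.33 at 20 days (adjusted p = 0.157).

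Of 13 genes of ubiquitin-like and autophagy proteins that guide these GTPases to membranes, 1 was lower at 1 day, and 1 lower and 1 higher at 20 days. Gabarapl1, an Atg8-family gene, was the lower one each time, with -0.39 ± 0.08 at 1 day (adjusted p = 0.00971) and -0.27 ± 0.07 at 20 days (adjusted p = 0.0233), calls that ended in 4 and 3 of 14 leave-one-out fits. The gene called higher at 20 days, Atg12, had 0.27, and its call ended in 14 of 14 leave-one-out fits (adjusted p up to 0.169). None of 10 prenylation genes, whose enzymes attach the lipid of some family members, and none of 3 other interferon-inducible large GTPases was called at either duration. Of 13 inflammasome genes, none was called at 1 day (median 0.01) and 5 were higher at 20 days (median 0.45). At 20 days 1 was called without IL-1β replicate 4, 2 without IL-1β replicate 1 or PBS replicate 4, and 3 without PBS replicate 2 or either of PBS 1-day replicates 1 and 2. Casp4, the mouse caspase-11 gene, rose by 0.55 ± 0.11 at 20 days (adjusted p = 0.008, called in every leave-one-out fit).

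**Figure D5:**
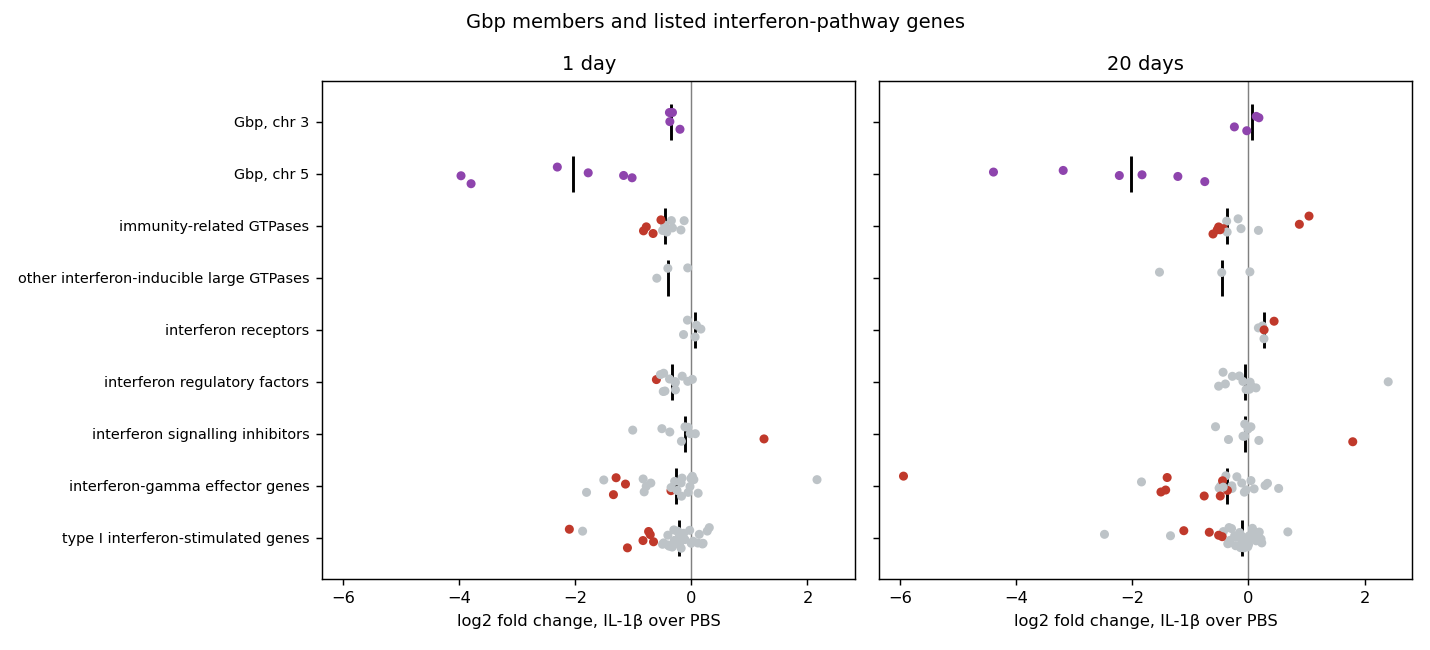
Log2 fold change of IL-1β over PBS at 1 day (left) and 20 days (right) for the members (purple) and for genes of 7 interferon-pathway lists (red where the adjusted p is under 0.05, grey otherwise). Each point is a gene and each black bar the median of its row; the chromosome 5 members reach -4.39, and the median of the immunity-related GTPases is -0.46 at 1 day and -0.37 at 20 days.

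The 4 nearest counted genes on each side of the clusters were also examined, of which 10 of 16 had enough counts for a test. Abcg3, a transporter gene that lies 31.4 kb from the Gbp8 end of the chromosome 5 cluster, averaged 36.7 ± 4.78 CPM in IL-1β 1-day cells and 60.1 ± 14.7 CPM in PBS 1-day cells, and 45.2 ± 4.51 CPM in IL-1β 20-day cells and 59.9 ± 10.1 CPM in PBS 20-day cells. It fell by 0.69 ± 0.15 at 1 day (adjusted p = 0.0168, edgeR) and had -0.40 ± 0.13 at 20 days (adjusted p = 0.0761). The 1-day call ended without IL-1β replicate 1, IL-1β replicate 2 or PBS replicate 2 (adjusted p of 0.128, 0.0584 and 0.107). None of the other 9 neighbours tested was called at either duration. On the Gbp11 side, Lrrc8b at 69.3 kb had 0.34 ± 0.14 at 1 day (adjusted p = 0.215) and Lrrc8c at 172.9 kb had 0.44 ± 0.15 (adjusted p = 0.109).

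Pearson's r of log2(CPM + 0.5) with the summed members over the 14 libraries was highest for Sfrp1 (0.958), Iigp1 (0.923), Gm11770 (0.909), Pygl (0.905) and Irgm1 (0.903). After removal of the 4 group means it was highest for Gm37607 (0.959), Zfp595 (0.957), Camk2d (0.944), Sos2 (0.943) and Iigp1 (0.942). Among the members, deviations from group means correlated at a median of 0.661 between chromosome 3 members (0.524 to 0.898) and 0.46 between chromosome 5 members (-0.013 to 0.73). For the 24 pairs across the clusters the median was 0.471 (-0.486 to 0.816), similar to that within chromosome 5. These coefficients describe libraries that share groups and naming sets.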

How the data were processed

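RNA of SLAM cells was sequenced in 14 libraries. Per the labels' protocols, SMARTer low-input cDNA and Nextera XT libraries, a chemistry that does not mark strand, gave single-end reads of 100 bases on a HiSeq2500. The deposited values are raw whole-number counts, by gene symbol and library. Build GRCm38.p4 is listed in the submitters' processing notes, as are HTSeq 0.6.1 and STAR 2.4.2a, with no role given for either tool. The strand setting of the counting is not given in the sources used here. Amplified reads carry no molecular identifiers, so copies of the same molecule cannot be told apart. The exact intervals take each read as independent and can be too narrow even for counting error.

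The members and gene lists were chosen with earlier results of these data known. Counts were fitted with edgeR 4.0.16 (R 4.3.3; TMM, filterByExpr with minimum count 10, two-sided quasi-likelihood test with robust estimation, p adjusted by Benjamini-Hochberg over all 15466 genes, threshold 0.05) on all libraries, with separate IL-1β effects at 1 and 20 days and a term for the naming set of the titles (8 residual degrees of freedom). The PBS groups were set against each other with group means alone (10 residual degrees of freedom). SE was taken as the size of the log2 change over the root of F. CPM uses TMM factors, except for sums over a list or cluster, which use library totals. Replicates are separate pools of mice. The 18 replicate pairs differed beyond sampling noise (chi-square per degree of freedom 10.7 to 74.4). Named genes are the members, Gbp2b, up to 3 called genes with the smallest p per list and comparison, genes named for their role (Irf1, Ifngr1, Ifngr2), cluster neighbours and the genes most like the members. 9930111J21Rik1, Irgm2, Kit, Ly6a, Slamf1, Cd48, C1qa, Adgre1, Siglec1 and the genes most like the chromosome 5 sum were chosen after their values were seen, and not every gene the rule takes is named. Some items are not reported here. Alternatives were other scalings, no filter, DESeq2 1.42.0, a replicate block, no naming-set term, naming sets alone, cluster sums and each library left out.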

Additional observations from a re-analysis of the deposited data

Results flagged for a closer look

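Gbp7 in PBS 20-day replicate 4 had 198 CPM, against 213 to 214 CPM in the other 3 libraries of its group, a gap of 0.939 of the group's range. Irgm2 in the same library had 49.2 CPM, against 84.2 to 89.4 CPM. The macrophage marker sum of PBS 20-day replicate 1 was 51.3 CPM, against 21.6 to 26.5 CPM. The neutrophil marker sum of IL-1β 20-day replicate 3 was 2640 CPM, against 136 to 194 CPM. The stem cell marker sum of IL-1β 20-day replicate 2 was 2930 CPM, against 3060 to 3080 CPM. These 5 were picked out of 60 groups of 4 libraries because 1 library lay far from the rest. Chance alone picks about 1 in 20 groups.

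The effect of IL-1β on 9930111J21Rik2 differed between the durations, by 1.54 on the log2 scale at 20 days relative to 1 day (interaction term in edgeR, adjusted p = 0.0442). The gene averaged 6.31 CPM in IL-1β cells and 8.93 CPM in PBS cells at 1 day, and 13.2 CPM in IL-1β cells and 6.38 CPM in PBS cells at 20 days.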

How the results depend on the processing

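All 276 values of the chromosome 5 members under the alternatives were negative, and no called value of any member changed sign. Of 460 member values, 444 moved by less than the spread between replicates. The log2 ratio of the chromosome 5 sum was -1.55 at 1 day (-1.69 to -1.39 with single libraries left out) and -1.48 at 20 days (-1.60 to -1.33), and that of the chromosome 3 sum was -0.32 (-0.36 to -0.29) and -0.05 (-0.08 to -0.04). The number of members called lower at 1 day was 6 and ran from 3 to 8 with single libraries left out, and at 20 days it was 7 and ran from 4 to 7. Genes called in all were 672 at 1 day (228 to 1244 with single libraries left out) and 1154 at 20 days (648 to 1156). They were 290 and 525 without the naming-set term, 1398 and 1804 with DESeq2, and 1200 and 750 with only the libraries of the comparison. For PBS 20 days against PBS 1 day the count was 0, also in each fit that left out 1 library, and 10 with DESeq2. With upper-quartile factors 46.3% of the 1-day calls were higher, against 57.9%. The cause of these differences was not tested. Replicate numbers are shared between groups, but deviations of same-numbered libraries correlated at 0.026 to 0.341, and not every pair passed 0.1, so the numbers were not taken as pairs. With the replicate block, 383 genes were called at 1 day and 672 at 20 days, and 3 members were called lower at 1 day. Gbp10 and Gbp11 rest on few counts, which limits the precision of their fold changes.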

Other observations

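After their values were seen, the genes most like the summed chromosome 5 members were also listed, by Pearson's r of log2(CPM + 0.5) over the 14 libraries. Those named here are Pygm (0.944), Gm4951 (0.944), Tgtp1 (0.933) and Cdip1 (0.932). Pygm, the muscle-type glycogen phosphorylase gene, averaged 17.8 CPM in IL-1β 1-day cells and 51.2 CPM in PBS 1-day cells, and 28.6 CPM in IL-1β 20-day cells and 58.8 CPM in PBS 20-day cells. It fell by 1.52 ± 0.21 on the log2 scale at 1 day (adjusted p = 0.00105, edgeR) and by 1.06 ± 0.18 at 20 days (adjusted p = 0.00255). The coefficients describe libraries that share groups, and no relation between these genes was tested.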
